A study of Drosophila melanogaster with 24 samples.

Results

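The RNAs that came down with Atx2-3xFLAG were measured in fly heads by RNA immunoprecipitation followed by sequencing (RIP-seq). In this assay an antibody against the FLAG epitope pulls a tagged protein out of a lysate, and the RNA recovered on the beads (RIP) is sequenced beside RNA from an untouched share of the lysate (Input). The comparison used the 16 libraries, of 24 in the series, that came from Atx2-3xFLAG flies and from the flies without a tagged protein. These genotypes had 4 lysates each, 8 of the 12 in the series, and from every lysate both a RIP and an Input library was made.

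In Atx2-3xFLAG flies, elav-GAL4 drove a transgene for Atx2 with a triple FLAG tag. The control genotype carried the elav-GAL4 driver alone, so both shared the driver and the labels name no loss of the native Atx2 gene. All flies were adult females, and each lysate was made from 300 heads that had been fixed with formaldehyde. Of the soluble lysate, 20% was kept as Input and 80% went onto the anti-FLAG beads. The driver is active in neurons, but the lysate came from whole heads, so Input held RNA of every head cell type, and RNA that stuck to the beads without the tag was measured by the control RIP. Flies with Nab2-FLAG under the same driver supplied the other 8 libraries.

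Atx2 (Ataxin-2) is a cytoplasmic RNA-binding protein, related to the human protein in which an expanded glutamine repeat causes spinocerebellar ataxia. In flies it is known for work on translation of the clock gene period, for a part in memory and for partnership with RNA granule proteins such as me31B. Small nucleolar RNAs (snoRNAs), which led the results below, are short noncoding RNAs that mostly lie in introns of host genes and guide the modification of ribosomal RNA in the nucleolus. Those named Psi belong to the box H/ACA class, which guides pseudouridylation, as do those named aca, while those named CD belong to the box C/D class, which guides methylation.

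The association of an RNA with Atx2-3xFLAG was defined as the log2 RIP-to-Input ratio in Atx2-3xFLAG lysates minus the same ratio in control lysates. A positive value means that the RNA was recovered better in the RIP when the tag was present. Libraries were scaled so that the typical gene sits near 0 (TMM), so a gain shared by most RNAs would not be seen. Of 17753 genes in the tables, 6147 had enough counts to be tested. Total counts ran from 661374 to 2000195 in Atx2-3xFLAG RIP and from 220894 to 1444393 in control RIP. They ran from 601479 to 1091678 in Atx2-3xFLAG Input and from 665341 to 877212 in control Input. The shallowest library was control RIP replicate 3. The median association over all genes was 0.02, and the central 90% of genes lay between -0.60 and 0.68. The median half-width of a 95% interval was 0.64, so a change of that log2 size or less was mostly within the error of a single gene.

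Atx2 itself was examined first. Its RIP level was 320 ± 36.5 CPM (counts scaled to library size) in Atx2-3xFLAG and 279 ± 9.04 CPM in control (SD, n = 4 each), a log2 difference of 0.18 (quasi-likelihood test of edgeR, adjusted p = 0.213). Its Input level was 275 ± 19.0 CPM in Atx2-3xFLAG and 257 ± 22.9 CPM in control (SD, n = 4 each), a log2 difference of 0.09 (edgeR, adjusted p = 0.678). The log2 RIP-to-Input ratio of Atx2 was 0.17, 0.09, 0.19 and 0.40 in the Atx2-3xFLAG lysates and -0.01, 0.23, 0.16 and 0.10 in the control lysates. The groups overlapped, and the association was 0.10 with a 95% interval from -0.15 to 0.36. The genotype label of these libraries was therefore not checked by the level of the gene in the transgene. The driver gene elav, which encodes a neuronal RNA-binding protein, had an association of -0.03 with an interval from -0.35 to 0.29.

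Few RNAs were called. With the quasi-likelihood test of edgeR, adjusted over 6147 genes with Benjamini and Hochberg's method at a threshold of 0.05, 3 genes had a higher association, 0.0488% of those tested, and 0 had a lower one. All 3 were snoRNAs. Without adjustment, p was under 0.05 for 215 higher genes (3.50%) and 125 lower genes (2.03%). All 4 Atx2-3xFLAG ratios lay above all 4 control ratios for 133 genes (2.16%) and below them for 77 genes (1.25%). DESeq2 called 1 gene higher and 0 lower, and limma on the log2 ratios called 0 in either direction. The plot of association by expression level shows where the called genes and the other snoRNAs sit.

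**Figure D1:**
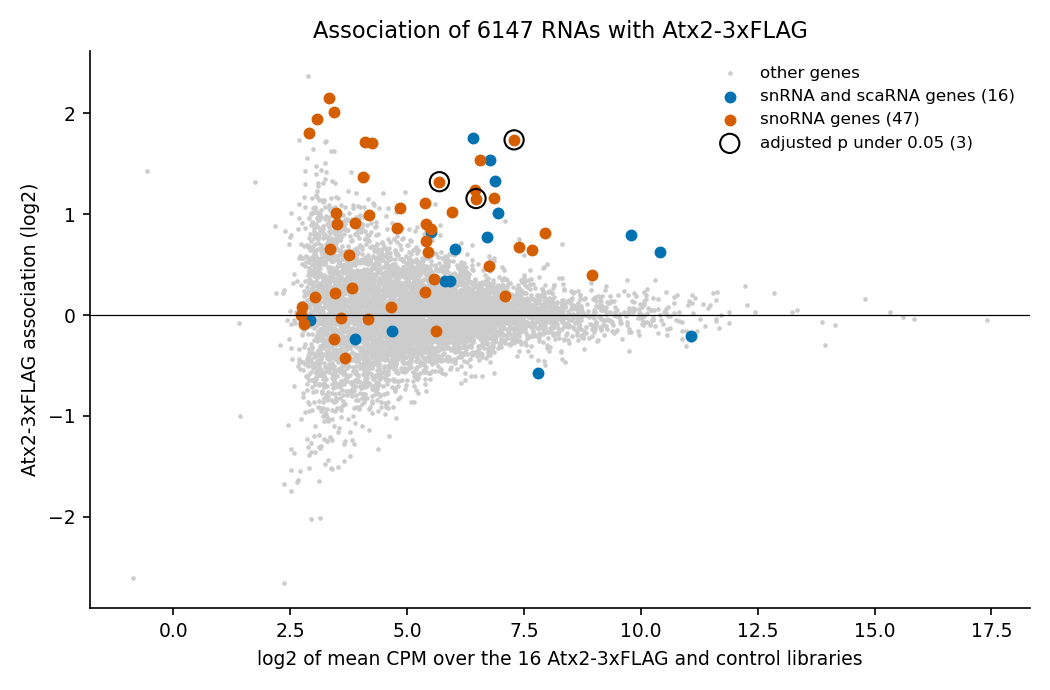
Atx2-3xFLAG association (log2, y axis) of the genes tested against the log2 of their mean CPM over the 16 Atx2-3xFLAG and control libraries (x axis), with 1 point per gene. The 2 genes without a count in these libraries are not drawn. Orange points are snoRNAs, of which 40 of 47 lie above 0, blue points are snRNAs and scaRNAs, and the 3 circled points have an adjusted p under 0.05 (edgeR).

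snoRNA:Or-CD2 (FBgn0086603), a box C/D snoRNA, had the smallest p. It lies on chromosome 2R from 9097030 to 9097169 in RefSeq's Release 6 coordinates, within the spans of the snoRNA host gene Uhg4 and of Ctu1. Its log2 RIP-to-Input ratio was -0.75, -1.20, -0.59 and -0.91 in the Atx2-3xFLAG lysates, against -2.13, -2.49, -3.37 and -2.77 in the control lysates. Every Atx2-3xFLAG lysate lay above every control lysate, although all 8 ratios were below 0. Its association was 1.74 with a standard error of 0.22 (quasi-likelihood test of edgeR, adjusted p = 8.28e-05). The difference lay in the immunoprecipitate. RIP levels were 123 ± 32.2 CPM in Atx2-3xFLAG and 38.8 ± 18.6 CPM in control (SD, n = 4 each), a log2 difference of 1.45 (edgeR, adjusted p = 0.0340). Input levels were 219 ± 26.6 CPM in Atx2-3xFLAG and 245 ± 84.7 CPM in control (SD, n = 4 each), a log2 difference of -0.16 (edgeR, adjusted p = 0.728).

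The association of snoRNA:Or-CD2 was called by DESeq2 too, and without each of the 8 lysates in turn it stayed between 1.60 and 1.91 with a call each time (edgeR). Without a term for the lysate it was 1.64 and lost its call (edgeR, adjusted p = 0.9998), and with limma on the ratios it was 1.83 (limma, adjusted p = 0.879).

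snoRNA:Psi18S-1086 (FBgn0083058), an H/ACA snoRNA, lies on 3L from 833062 to 833209 inside Sf3b3, which encodes a subunit of the splicing factor SF3b. Its log2 ratio was 0.47, 0.93, 0.34 and -0.19 in Atx2-3xFLAG lysates, against -0.45, -1.04, -1.02 and -1.18 in control lysates. The groups did not overlap, and 3 of 4 Atx2-3xFLAG ratios were above 0 while all control ratios were below it. Its association was 1.32 with a standard error of 0.27 (quasi-likelihood test of edgeR, adjusted p = 0.0143). RIP levels were 65.0 ± 8.65 CPM in Atx2-3xFLAG and 30.9 ± 4.56 CPM in control (SD, n = 4 each), a log2 difference of 0.94 (edgeR, adjusted p = 0.00134). The log2 difference in Input was -0.27 (edgeR, adjusted p = 0.388). Its call did not survive leaving out Atx2-3xFLAG replicate 2 or 3, at associations of 1.19 and 1.30 (edgeR, adjusted p = 0.0758 and 0.102), or control replicate 2, 3 or 4, at 1.27, 1.29 and 1.19 (edgeR, adjusted p = 0.215, 0.0581 and 0.184). The values themselves moved little.

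snoRNA:Or-aca5, also of the H/ACA class, lies on 2R from 9095685 to 9095832 in Uhg4, with 1197 bases between it and snoRNA:Or-CD2. Its log2 ratio was 0.31, -0.48, 0.47 and 0.79 in Atx2-3xFLAG lysates, against -0.72, -1.09, -2.11 and -0.48 in control lysates. Atx2-3xFLAG replicate 2 fell level with the highest control lysate, so the groups overlapped. The association was 1.16 with a standard error of 0.24, the closest of the 3 to the threshold (quasi-likelihood test of edgeR, adjusted p = 0.0469). Neither pool alone gave a call, with a log2 difference of 0.60 in RIP (edgeR, adjusted p = 0.246) and -0.35 in Input (edgeR, adjusted p = 0.183). The call was lost without any 1 of Atx2-3xFLAG replicates 1, 3 and 4 and control replicates 1, 2 and 3, at associations from 1.00 to 1.20 (edgeR, adjusted p from 0.0843 to 0.489). Without Atx2-3xFLAG replicate 3, control replicate 2 or control replicate 3, snoRNA:Or-CD2 was the single RNA called. The lowest read counts in control RIP were 3 for snoRNA:Or-CD2, 5 for snoRNA:Psi18S-1086 and 4 for snoRNA:Or-aca5.

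**Figure D2:**
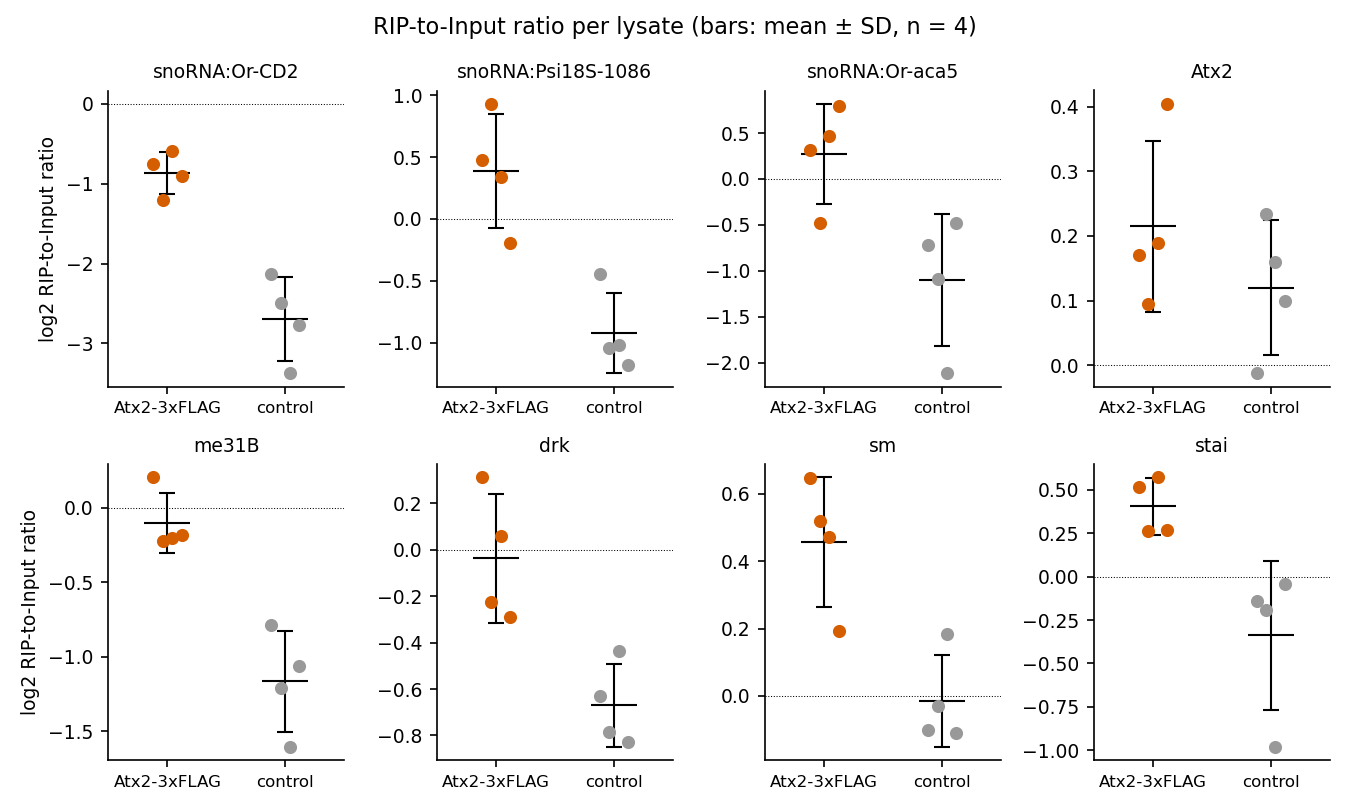
Log2 RIP-to-Input ratio (y axis, a separate scale in each panel) of 8 RNAs in the 4 Atx2-3xFLAG lysates (orange, left) and the 4 control lysates (grey, right), with points for lysates and bars for the mean ± SD. The groups are apart for snoRNA:Or-CD2, snoRNA:Psi18S-1086, me31B, drk, sm and stai and overlap for snoRNA:Or-aca5 and Atx2.

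The snoRNAs that could be tested leaned the same way. Of 273 snoRNA genes in the tables, 47 had enough counts to be tested, and 40 of these had an association above 0, against 52.9% of all genes. The count filter used all 6 groups, so a snoRNA could pass it through Atx2-3xFLAG RIP or Nab2-FLAG RIP alone. The part of this in the lean was not tested. Most of the 47 were named Psi or aca, so the lean is mainly that of the H/ACA class. Of the snoRNAs named CD, only snoRNA:Or-CD2 and snoRNA:Or-CD1 were tested. The association of snoRNA:Or-CD1 was 0.08, with an interval from -2.88 to 3.04. Some snoRNAs have names without Psi, aca or CD and were not sorted by class here. snoRNA:U3:9B, one of these, was at 0.74 with an interval from -0.10 to 1.57. How box C/D snoRNAs behave as a class cannot be read from so few named members. An unadjusted p under 0.05 was reached by 17 snoRNAs in the higher direction and by 0 in the lower one (quasi-likelihood test of edgeR), where the share over all genes was 3.50% and 2.03%. For 11 snoRNAs the 4 Atx2-3xFLAG ratios lay above the 4 control ratios, and for 0 they lay below. The shares over all genes were 2.16% and 1.25%. The median association of the 47 was 0.82, against 0.02 for all genes. Their median level was 25.1 CPM and their median standard error 0.55, against 32.7 CPM and 0.32 for all genes, and most single snoRNAs could not be separated from 0.

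Per lysate, the median log2 ratio over the 47 snoRNAs was 0.55, -0.13, -0.49 and -0.67 in Atx2-3xFLAG and -0.45, -0.29, -1.20 and -1.26 in control. These lysate medians overlapped between the genotypes, and Atx2-3xFLAG replicate 1 was the highest while control replicates 3 and 4 were the lowest. At each replicate number the Atx2-3xFLAG median lay above the control median, but whether the numbers pair the lysates was not settled. Without Atx2-3xFLAG replicate 1 the median association was 0.49, with 33 of 47 above 0, and without control replicate 4 it was 0.34, with 30 of 47 above 0. In both cases 15 snoRNAs had an unadjusted p under 0.05 in the higher direction (edgeR). Without control replicate 3, the shallowest library, the median was 0.78. Summed over all snoRNAs tested, the RIP level was 1860 to 3431 CPM in Atx2-3xFLAG and 1219 to 2392 CPM in control, and the Input level was 2426 to 3871 CPM in Atx2-3xFLAG and 2796 to 4782 CPM in control. The summed levels overlapped in both pools.

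In the control genotype 40 of 47 snoRNAs had a mean log2 ratio below 0, that is, they were poorer in RIP than in Input when no tag was present. In Atx2-3xFLAG lysates 25 of 47 did. Within RIP alone, 20 snoRNAs were higher in Atx2-3xFLAG than in control and 0 were lower (quasi-likelihood test of edgeR, adjusted p under 0.05), where 12.1% of all genes were higher and 12.1% lower. Within Input, 3 were higher and 3 lower, where 8.91% and 7.63% of all genes were. The median log2 difference of the snoRNAs was 1.01 in RIP and 0.25 in Input.

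**Figure D3:**
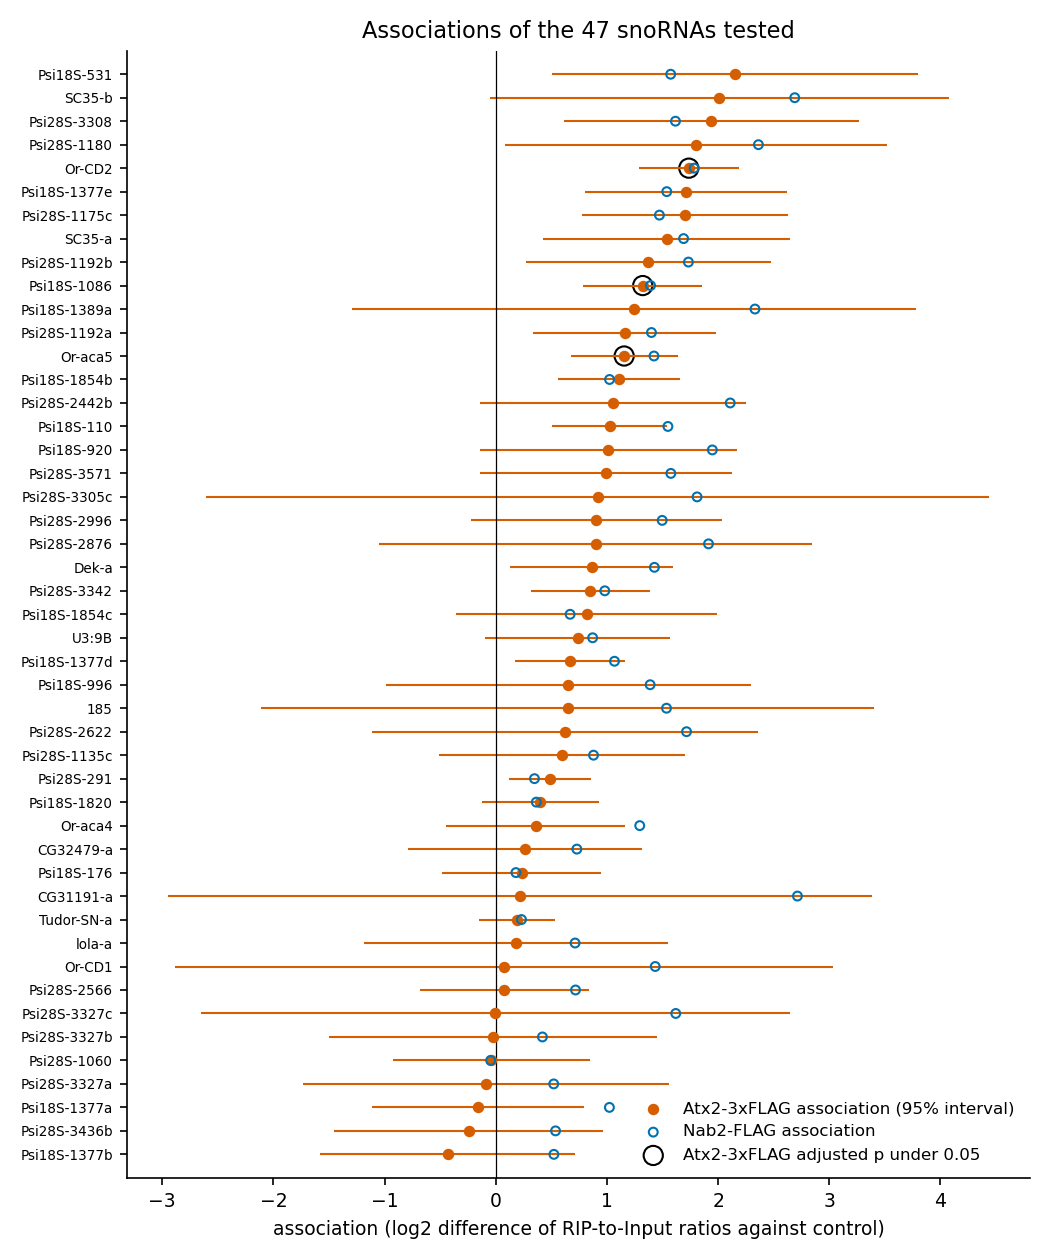
Association of the 47 snoRNAs tested (log2 difference of RIP-to-Input ratios against control, x axis), 1 row per snoRNA in order of the Atx2-3xFLAG value. Filled orange points with lines are Atx2-3xFLAG associations with 95% intervals, open blue circles are Nab2-FLAG associations, and black rings mark the 3 called snoRNAs; values for the 2 proteins share the control lysates.

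The position of the snoRNAs in their host genes allowed a look at the host transcripts. Of the 47, 39 lay inside 1 of 23 genes that were also tested. The associations of these 23 genes had a median of -0.01 and ran from -0.36 to 0.40, with 10 above 0 and 0 at an unadjusted p under 0.05 (quasi-likelihood test of edgeR). Of the 39 snoRNAs, 35 had a higher association than the gene around them. Whether the counting used strand is not given in the sources used here, so reads of a snoRNA and of the intron or exon around it may be mixed, in either direction.

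Sf3b3 held 3 of the snoRNAs. snoRNA:Psi18S-110 had an association of 1.02, snoRNA:Psi18S-1086 of 1.32 and snoRNA:Psi28S-3308 of 1.94, while Sf3b3 itself was at 0.18 with a 95% interval from -0.42 to 0.78. RpS5a, a gene for a protein of the small ribosomal subunit, held 6, which ran from 0.60 to 1.37 beside -0.10 for RpS5a, with an interval from -0.41 to 0.21. SC35, the gene of an SR splicing factor, held 2 with values of 1.54 and 2.01 beside 0.05 for the host, whose interval ran from -0.99 to 1.09. The snoRNAs of these 3 hosts all had positive values, and the interval of each host included 0. Other hosts differed. RpS7 held 4 snoRNAs from -0.43 to 1.71 beside a host value of 0.08, and the 3 snoRNAs in RpS4 lay between -0.09 and 0.00 beside a host value of -0.10. Uhg4, the host of snoRNA:Or-CD2 and snoRNA:Or-aca5, and the other Uhg genes did not have enough counts to be tested.

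Below the threshold, 4 further snoRNAs were among the 8 RNAs with the smallest unadjusted p whose lysates did not overlap. snoRNA:Psi18S-1854b, in RpS5a, had log2 ratios of -0.07, -0.23, -0.63 and -0.53 in Atx2-3xFLAG lysates and -1.29, -1.63, -1.52 and -1.45 in control lysates. The control lysates lay within a narrow range, below all Atx2-3xFLAG lysates. Its association was 1.11 (quasi-likelihood test of edgeR, adjusted p = 0.150). For snoRNA:Psi18S-110 it was 1.02 (edgeR, adjusted p = 0.170), for snoRNA:Psi18S-1377e 1.71 (edgeR, adjusted p = 0.187) and for snoRNA:Psi28S-1175c 1.70 (edgeR, adjusted p = 0.268). The lowest read counts in control RIP were 3, 2, 0 and 1 for these 4 snoRNAs in the order given, so their values rest partly on counts near the floor. snoRNA:Psi28S-1175c passed the threshold without Atx2-3xFLAG replicate 1, at 2.08 (edgeR, adjusted p = 0.0439).

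The spliceosomal snRNAs and the scaRNAs, which guide modification of snRNAs, are also short nuclear RNAs. Of 47 such genes 16 were tested, 0 were called, and 11 had an association above 0. The filter described for the snoRNAs chose these 16 too, and its part in their values was not tested. Their median was 0.64, and 3 were higher and 1 lower at an unadjusted p under 0.05 (quasi-likelihood test of edgeR), against 3.50% and 2.03% of all genes. Their median log2 ratio per lysate was 0.069, -0.45, -0.58 and -0.94 in Atx2-3xFLAG and -0.24, -0.65, -1.61 and -1.69 in control, so the lysate medians overlapped between the genotypes. At each replicate number the Atx2-3xFLAG median was the higher, as it was for the snoRNAs. snRNA:U1:95Cc, a copy of the RNA that recognizes the 5′ splice site, had log2 ratios of -1.36, -1.58, -0.98 and -0.50 in Atx2-3xFLAG lysates and -1.76, -1.96, -1.63 and -1.81 in control lysates. The groups did not overlap, and the association was 0.77 with a standard error of 0.27 (edgeR, adjusted p = 0.698). snRNA:U4:38AB had an association of 0.82, with overlapping groups (edgeR, adjusted p = 0.825). U1, U2, U4 and U5 have near-identical gene copies, between which the authors' counting could split reads.

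Messenger RNAs took up most of the test and gave no call with the edgeR test used throughout. With the replicate number as a block some passed the threshold, sm among them, as listed with the processing checks at the end. me31B, drk, sm and stai were named by the study from these same samples as RNAs shared by Nab2 and Atx2, so their direction here is not independent evidence. All 4 had Atx2-3xFLAG ratios above every control ratio, as did 2.16% of all genes. Each had an unadjusted p under 0.05, and none passed the adjusted threshold without the replicate block (quasi-likelihood test of edgeR).

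me31B encodes a DEAD-box helicase that represses translation in cytoplasmic granules. Its log2 ratio was 0.20, -0.22, -0.21 and -0.18 in Atx2-3xFLAG lysates, against -0.79, -1.21, -1.60 and -1.06 in control lysates. Its association was 1.06 with a standard error of 0.36 (quasi-likelihood test of edgeR, adjusted p = 0.543), on RIP levels of 24.4 ± 3.45 CPM in Atx2-3xFLAG and 13.5 ± 2.70 CPM in control (SD, n = 4 each). The groups did not overlap, and its mean level over the 16 libraries was below the median of 32.7 CPM of all genes tested. Read counts of me31B in control RIP ran from 2 to 20.

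drk encodes the adaptor that links receptor tyrosine kinases to Ras. Its log2 ratio was 0.31, -0.23, 0.06 and -0.29 in Atx2-3xFLAG lysates and -0.63, -0.79, -0.44 and -0.83 in control lysates, and its association was 0.71 (quasi-likelihood test of edgeR, adjusted p = 0.380). sm encodes an RNA-binding protein of the hnRNP L family. Its log2 ratio was 0.65, 0.52, 0.47 and 0.19 in Atx2-3xFLAG lysates and -0.10, -0.03, 0.18 and -0.11 in control lysates, and its association was 0.50 (edgeR, adjusted p = 0.187). The lowest Atx2-3xFLAG lysate of sm lay just above the highest control lysate. stai encodes stathmin, which destabilizes microtubules. Its log2 ratio was 0.52, 0.26, 0.57 and 0.27 in Atx2-3xFLAG lysates and -0.14, -0.20, -0.98 and -0.04 in control lysates, and its association was 0.65 (edgeR, adjusted p = 0.653). Control replicate 3, the shallowest library, was far below the other control lysates for stai.

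In RIP alone all 4 were higher in Atx2-3xFLAG than in control. The log2 difference was 0.72 for me31B, 0.71 for drk, 0.60 for sm and 0.91 for stai (quasi-likelihood test of edgeR, adjusted p = 0.0221, 0.000296, 7.12e-05 and 2.04e-06 in that order). In Input their log2 differences ran from -0.30 for me31B to 0.30 for stai, with no call.

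The other messenger RNAs among the 8 non-overlapping RNAs with the smallest p in the higher direction were CG31221, CG4962 and CG9451. CG31221 had log2 ratios of 0.53, 0.58, 0.74 and 0.54 in Atx2-3xFLAG lysates and -0.29, 0.29, -0.59 and 0.18 in control lysates. Its Atx2-3xFLAG lysates were close together while the control lysates were spread on both sides of 0, and its association was 0.59 (quasi-likelihood test of edgeR, adjusted p = 0.187). CG4962 had an association of 1.10 (edgeR, adjusted p = 0.150) and CG9451 of 1.22 (edgeR, adjusted p = 0.187). Without control replicate 4, CG9451 passed the threshold at 1.61 (edgeR, adjusted p = 0.0280). For CG9451 the difference lay in Input, which was lower in Atx2-3xFLAG by a log2 of -0.90 (edgeR, adjusted p = 0.00720), while RIP differed by 0.20 (edgeR, adjusted p = 0.514).

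In the lower direction the 8 non-overlapping RNAs with the smallest p were all genes for proteins. Idgf4, which encodes a secreted growth factor of the chitinase-like family, had log2 ratios of -0.24, -0.39, -0.35 and -0.18 in Atx2-3xFLAG lysates and 0.12, 0.08, 0.30 and 0.34 in control lysates. The groups lay on opposite sides of 0, and the association was -0.49 with a standard error of 0.13 (quasi-likelihood test of edgeR, adjusted p = 0.187). Here too the difference lay in Input, which was higher by a log2 of 0.49 in Atx2-3xFLAG (edgeR, adjusted p = 0.00239), while RIP differed by -0.03 (edgeR, adjusted p = 0.872). fng, which encodes a glycosyltransferase that modifies Notch, had the largest drop of the 8, at -1.33. Its Input was higher by 0.84 (edgeR, adjusted p = 0.0440), and its RIP differed by -0.50 without a call (edgeR, adjusted p = 0.120).

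The remaining 6 had associations from -0.60 for PDZ-GEF, a gene for an exchange factor of the GTPase Rap1, to -0.36 for RpL34b, a gene for a protein of the large ribosomal subunit. Between them were Mtpalpha, which encodes a subunit of the mitochondrial enzyme for fatty acid oxidation, at -0.57, CG6287 at -0.46, CG32687 at -0.44 and Gart, which encodes a purine synthesis enzyme, at -0.43. None passed the threshold (quasi-likelihood test of edgeR, adjusted p from 0.354 to 0.543). Gart was higher in Atx2-3xFLAG in both pools, by a log2 of 1.00 in RIP (edgeR, adjusted p = 0.00166) and 1.45 in Input (edgeR, adjusted p = 9.18e-05), and its negative association is the gap between these. RpL34b was lower in both, by -1.11 in RIP and -0.76 in Input (edgeR, adjusted p = 4.82e-10 and 1.04e-06).

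**Figure D4:**
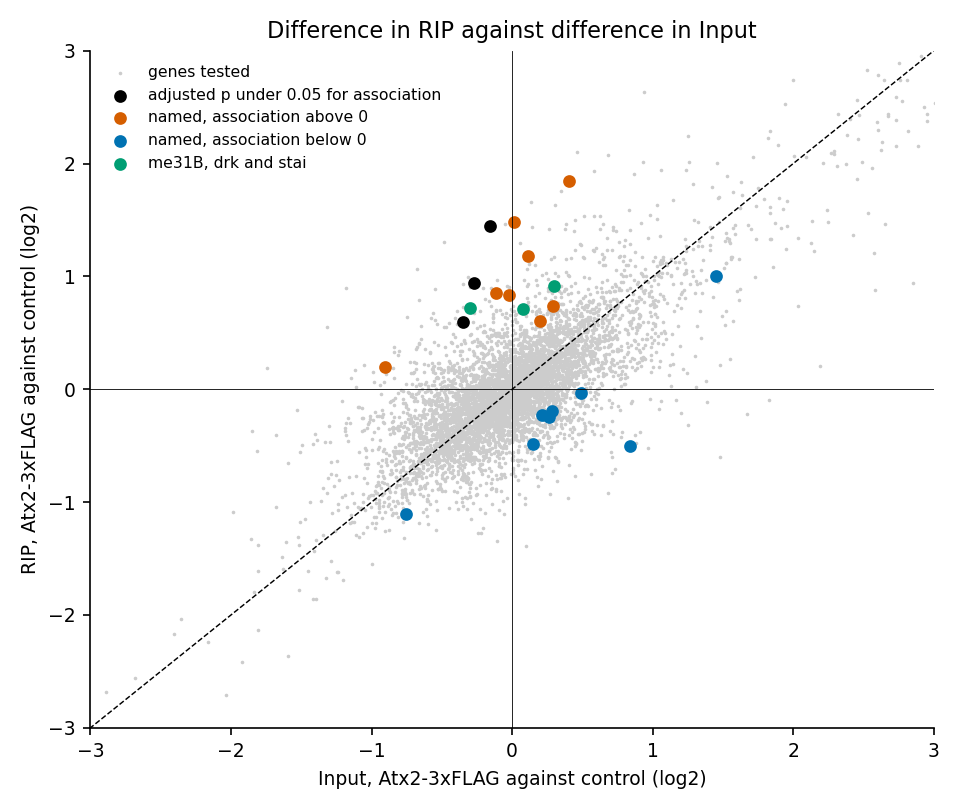
Log2 difference between Atx2-3xFLAG and control in RIP (y axis) against the same difference in Input (x axis), 1 grey point per gene tested, with 31 genes outside the plotted range of -3 to 3. On the dashed line RIP and Input changed alike; black points are the 3 called snoRNAs, orange and blue points the named RNAs with an association above and below 0, and green points me31B, drk and stai.

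The genotypes differed widely before any immunoprecipitation. In Input, 548 genes were higher in Atx2-3xFLAG than in control and 469 were lower (8.91% and 7.63%; edgeR quasi-likelihood, adjusted p under 0.05). Of these 1017 genes, 757 were also called in RIP in the same direction and 0 in the opposite one; the 2 pools share their lysates. In RIP, 741 genes were higher and 741 lower. Markers of some other head cell types differed between the genotypes. Of 17 muscle genes tested, 13 were higher in Atx2-3xFLAG Input and 0 lower, and their summed Input level was 9305 to 10231 CPM in Atx2-3xFLAG and 5154 to 6444 CPM in control. Of 81 ribosomal protein genes, 70 were lower in Input and 69 in RIP. Of 10 fat body markers 1 was higher and 3 were lower in Input, and their sum was 73877 to 81686 CPM in Atx2-3xFLAG Input and 111296 to 148515 CPM in control Input. Photoreceptor and glial markers went both ways in Input, with 5 of 19 higher and 9 lower, and with 1 of 12 higher and 2 lower. In such bulk samples, fewer cells of a type and less RNA per cell cannot be told apart.

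The association sets each RIP against its own Input, and for these groups it lay near 0. The muscle genes had a median association of -0.02, with 0 higher and 1 lower at an unadjusted p under 0.05 (quasi-likelihood test of edgeR). Of all genes, 3.50% were higher and 2.03% lower at that level. The muscle myosin gene Mhc was higher in Atx2-3xFLAG by a log2 of 0.38 in RIP (edgeR, adjusted p = 0.00799) and 0.65 in Input (edgeR, adjusted p = 3.07e-06), and its association was -0.23 (edgeR, adjusted p = 0.825). The ribosomal protein genes had a median of -0.03. Of the 81 tested, 4 were higher and 2 lower at an unadjusted p under 0.05 (edgeR), near those same shares of all genes. RpL37A, at 0.35, had the smallest p among them (edgeR, adjusted p = 0.411). Fat body markers had a median of -0.06, with 2 of 10 above 0, against 52.9% of all genes. One of the fat body markers above 0 was apolpp, the precursor of the blood lipid carrier lipophorin, at 0.29 with non-overlapping groups (edgeR, adjusted p = 0.477).

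Neuronal genes, which the cells with the tagged protein express, gave no call. The 24 neuron markers had a median association of 0.08, with 18 above 0, against 52.9% of all genes, and 3 were higher and 0 lower at an unadjusted p under 0.05 (quasi-likelihood test of edgeR), against 3.50% and 2.03% of all genes. Their median log2 ratio per lysate was 0.31, 0.39, 0.27 and 0.034 in Atx2-3xFLAG and 0.16, 0.21, 0.19 and 0.073 in control, so the genotypes overlapped, with Atx2-3xFLAG replicate 4 the lowest of the 8. Of 25 synaptic vesicle genes, which share several members with the neuron markers, 21 lay above 0 with a median of 0.16, and 5 were higher and 0 lower at an unadjusted p under 0.05, beside the same shares of all genes. Their lysate medians overlapped too, at 0.34, 0.45, 0.29 and -0.0094 in Atx2-3xFLAG and 0.17, 0.078, 0.12 and 0.022 in control, with Atx2-3xFLAG replicate 4 again the lowest. unc-13, which primes vesicles for release, had log2 ratios of 0.48, 0.36, 0.38 and 0.11 in Atx2-3xFLAG lysates and 0.01, 0.08, -0.01 and -0.02 in control lysates. These did not overlap, and the association was 0.31 (edgeR, adjusted p = 0.698). cac, the presynaptic calcium channel gene, was at 0.45 (edgeR, adjusted p = 0.698) and nSyb, a gene for a vesicle SNARE, at 0.29 (edgeR, adjusted p = 0.825). Neuron markers were also more abundant before the immunoprecipitation, with 10 of 24 higher and 1 lower in Atx2-3xFLAG Input. Of all genes, 8.91% were higher and 7.63% lower there. The part of the Input difference in the ratios was not tested. The plot of associations by gene list shows the spread of each group.

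Photoreceptor and glial markers had medians of 0.03 each, with 19 and 12 genes tested. Of these, 11 and 7 lay above 0, against 52.9% of all genes. Groups did not overlap for 2 photoreceptor genes in the higher and 1 in the lower direction. For the glial genes these counts were 1 and 0, where the shares over all genes were 2.16% and 1.25%. Among the glial genes Gat, a GABA transporter gene, was the highest at 0.79 with non-overlapping groups (quasi-likelihood test of edgeR, adjusted p = 0.517). The glial marker axo was at -0.28 with overlapping groups (edgeR, adjusted p = 0.878). Among the photoreceptor genes rdgB, for a lipid transfer protein, was at 0.24 with non-overlapping groups (edgeR, adjusted p = 0.877). norpA was at 0.18 with overlapping groups (edgeR, adjusted p = 0.878).

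**Figure D5:**
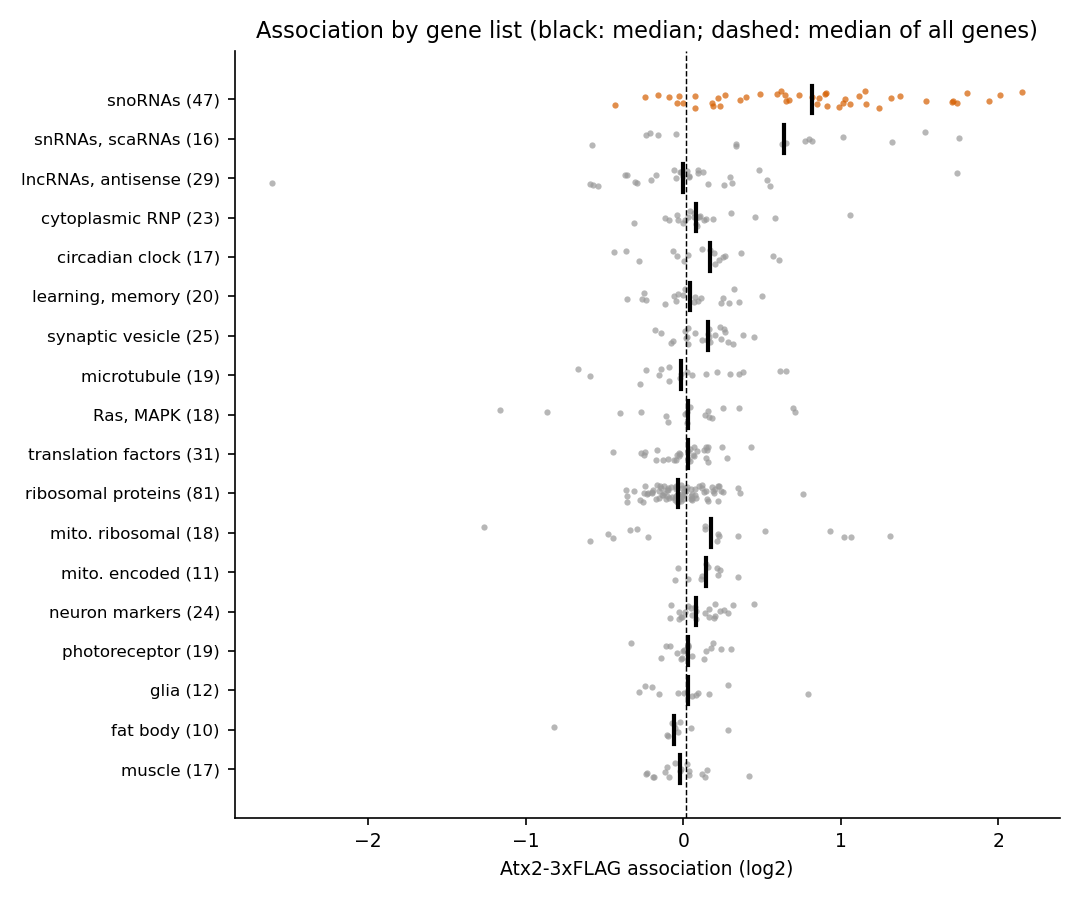
Atx2-3xFLAG association (log2, x axis) of the tested members of 18 gene lists, 1 point per gene, with the number tested in brackets, a black bar at the median of each list and a dashed line at the median of all genes. snoRNAs (orange, median 0.82) and snRNAs with scaRNAs (median 0.64) lie to the right of the other lists, whose medians run from -0.06 to 0.18.

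Genes tied to the known work of Atx2 were read by lists. Among 23 factors of cytoplasmic RNA granules, decay and translational repression, 17 lay above 0 with a median of 0.08, against 52.9% of all genes above 0. An unadjusted p under 0.05 in the higher direction was reached by 2 of them, beside 3.50% of all genes (quasi-likelihood test of edgeR). These were me31B and AGO2, the Argonaute of RNA interference. AGO2 had log2 ratios of 0.44, 0.15, 0.01 and -0.26 in Atx2-3xFLAG lysates and -0.52, -0.53, -0.55 and -0.43 in control lysates. The control lysates were nearly identical and below all Atx2-3xFLAG lysates, and the association was 0.58 (quasi-likelihood test of edgeR, adjusted p = 0.517). Of 17 clock genes 12 lay above 0, beside the same 52.9% of all genes, with a median of 0.17, and sgg, the kinase gene shaggy, had the smallest p at 0.25 (edgeR, adjusted p = 0.878). cry, the gene of the photoreceptor protein cryptochrome, was at -0.36 (edgeR, adjusted p = 0.878).

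Of 20 learning and memory genes, with a median of 0.04, CaMKII, for a calcium-dependent kinase, was at 0.50 (quasi-likelihood test of edgeR, adjusted p = 0.825) and Nf1, for a Ras GTPase activator, at 0.35 (edgeR, adjusted p = 0.877). Microtubule genes had a median of -0.01, and besides stai the gene Map205, for a microtubule-associated protein, was at 0.61 (edgeR, adjusted p = 0.855). Ras and MAPK pathway genes had a median of 0.03, with drk at the high end and Dsor1, the MAPK kinase gene, at the low end with -1.16 and a standard error of 0.55 (edgeR, adjusted p = 0.877). Of 31 translation factors, with a median of 0.03, eEF1gamma was at -0.24 (edgeR, adjusted p = 0.749) and eEF1alpha1 at 0.16 (edgeR, adjusted p = 0.878). No member of these lists was called.

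Long noncoding and antisense RNAs were spread around 0, with a median of 0.00 over 29 genes. lncRNA:CR34335 was at 0.26 (quasi-likelihood test of edgeR, adjusted p = 0.825), and lncRNA:CR32218, at 1.74 with a standard error of 0.78, had overlapping groups (edgeR, adjusted p = 0.872). The 11 mitochondrially encoded genes had a median of 0.14, with mt:CoIII at 0.22 (edgeR, adjusted p = 0.872) and mt:ND5 at 0.22 (edgeR, adjusted p = 0.916). The 18 nuclear genes for mitochondrial ribosomal proteins had a median of 0.18. Of these, mRpS30 was at 1.31 (edgeR, adjusted p = 0.749) and mRpL2 at -1.27 (edgeR, adjusted p = 0.878), on average levels of 11.1 and 7.68 CPM. Control RIP counts went down to 0 reads for both.

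Atx2-3xFLAG was then set directly against Nab2-FLAG, a contrast in which the control ratios cancel, although the filter, the scaling and the estimate of the spread still used all 24 libraries. Nab2 is a zinc finger protein that binds poly(A) RNA, largely in the nucleus. No gene passed the adjusted threshold of 0.05 for a difference between the 2 associations (quasi-likelihood test of edgeR, 0 higher and 0 lower, with 0 also by limma and by DESeq2). Without adjustment, p was under 0.05 for 133 genes that were higher for Atx2-3xFLAG (2.16%) and for 91 that were lower (1.48%). For snoRNA:Or-CD2 the difference was -0.05 with a 95% interval from -0.44 to 0.35. For snoRNA:Psi18S-1086 it was -0.07, from -0.56 to 0.42, and for snoRNA:Or-aca5 -0.27, from -0.74 to 0.20. A log2 difference of more than about 0.74 in either direction lay outside all 3 intervals.

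Set against the shared control, Nab2-FLAG had associations of 1.78, 1.39 and 1.42 for these snoRNAs in the same order, beside 1.74, 1.32 and 1.16 for Atx2-3xFLAG. Over the 47 snoRNAs the median was 0.82 for Atx2-3xFLAG and 1.42 for Nab2-FLAG, and 37 of 47 had the larger value for Nab2-FLAG. The filter that chose the 47 used all 24 libraries, so a snoRNA could pass it through Nab2-FLAG RIP alone. The part of this in these values was not tested. In the direct contrast the median of the 47 was -0.52 and 5 had an unadjusted p under 0.05, all lower for Atx2-3xFLAG. snoRNA:Psi18S-110 was one of these, at -0.52 with an interval from -0.98 to -0.06. Among messenger RNAs, fng was lower for Atx2-3xFLAG by -1.22, from -1.91 to -0.52, and CG9451 was higher by 0.82, from 0.24 to 1.39, both at unadjusted p only. For me31B, drk, sm and stai the differences ran from -0.35 to 0.13, and each interval included 0.

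The authors' deposited table gives, per gene, a ratio of percent input between Atx2-3xFLAG and control with a p-value from Dunnett's test, unadjusted over genes. A p under 0.05 with a higher ratio was given to 103 of 5712 genes (1.80%) in the authors' deposited table, and with a lower ratio to 84 (1.47%). Of the 103, 101 were tested here, and 70 of them also had an unadjusted p under 0.05 and a higher association in edgeR, while 53 had non-overlapping lysates. Of the 84, all were tested and 56 had an unadjusted p under 0.05. These counts use the same libraries, so they compare 2 ways of processing them. snoRNA:Or-CD2 had a ratio of 3.53 in the authors' deposited table (Dunnett p = 0.005), snoRNA:Psi18S-1086 of 2.60 (Dunnett p = 0.0335) and snoRNA:Or-aca5 of 2.55 (Dunnett p = 0.0254).

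The 3 genes with the smallest Dunnett p for Atx2 in the authors' deposited table all had ratios below 1. Prosalpha7, a proteasome subunit gene, had log2 ratios of 0.20, 0.14, -0.22 and -0.35 in Atx2-3xFLAG lysates and 0.90, 0.75, 0.63 and 0.62 in control lysates, and an association of -0.92 (quasi-likelihood test of edgeR, adjusted p = 0.724). Tig, which encodes the extracellular matrix protein tiggrin, was at -0.41 (edgeR, adjusted p = 0.543) and Msr-110 at -0.16 (edgeR, adjusted p = 0.878). In all 3 the lysates of the genotypes did not overlap, and none passed the threshold over all genes.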

How the data were processed

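Per the labels, rRNA-depleted stranded libraries were made from RIP and Input RNA, and RIP and Input libraries were pooled apart. Raw counts per gene were deposited by the authors, made with STAR 2.6.0b-1 and featureCounts 1.6.3 on BDGP6 per the submitters' processing notes; annotation and strand setting are not given in the sources used here. The authors' deposited table holds a ratio of percent input and Dunnett p-values; 24 other per-sample columns were not used. Of 17753 symbols, 16663 matched 1 FlyBase gene; coordinates are RefSeq's (Release 6).

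Counts were tested with edgeR 4.0.16 in R 4.3.3 (robust quasi-likelihood F test, two-sided, TMM, filterByExpr on 6 groups, Benjamini-Hochberg, threshold 0.05) on all 24 libraries, with a coefficient per lysate. RIP and Input were also tested alone. Log2 ratios per lysate used a prior count of 2, and CPM values used none. limma 3.58.1 and DESeq2 1.42.0 were alternatives. The procedure was tested on simulated data. Chi-square per degree of freedom between replicates was 1.43 to 8.20, so none was a repeat of another.

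Members and lists were chosen with earlier results of these data known. Named were all called genes, 8 non-overlapping genes per direction of at least 10 CPM with the smallest p, Atx2, elav, the 4 RNAs the study singled out, 2 genes per list and 3 from the deposited table; host genes and other snoRNAs were named after their values were seen.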

Additional observations from a re-analysis of the deposited data

Results flagged for a closer look

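Of 58 groups of 4 lysates among the named RNAs, 4 held a lysate that stood apart from the other 3, where chance gives about 1 in 20, or 2.9. The log2 RIP-to-Input ratio of CG9451 was 1.26 in Atx2-3xFLAG replicate 3, against 0.00 to 0.14 in the other Atx2-3xFLAG lysates. That of me31B was 0.20 in Atx2-3xFLAG replicate 1, against -0.22 to -0.18 in the others. In control lysates, CG6287 was at 0.47 in replicate 1, against 0.28 to 0.30 in the others, and stai was at -0.98 in replicate 3, against -0.20 to -0.04 in the others.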

How the results depend on the processing

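The 3 higher and 0 lower calls became 3 and 0 with library size or DESeq2 size factors, 4 and 0 without an expression filter or on the 16 libraries alone, and 3 and 0 without the lysates of the 2 shallowest libraries, an alternative chosen after seeing the data. Without 1 lysate at a time the higher count was 1 to 3. It was 0 without the lysate term and with limma at either prior count, and 1 with DESeq2. The checks did not settle whether replicate numbers pair the lysates across genotypes. Correlations of same-numbered Atx2-3xFLAG and control lysates ran from -0.06 to 0.33, with 1 of 4 best with its own number. Those of Atx2-3xFLAG and Nab2-FLAG lysates ran from -0.14 to 0.42. The mitochondrial share of RIP counts in replicates 1 to 4 was 14.5%, 15.1%, 18.4% and 19.0% in Atx2-3xFLAG. In control it was 14.95%, 14.8%, 20.0% and 18.9%. With the number as a replicate block there were 27 higher and 4 lower. The block gave calls to the messenger RNAs sm, CG4962, CG31221, apolpp and RpL37A (higher) and Idgf4 (lower). Their adjusted p ran from 0.0134 to 0.0394 (edgeR). It gave a call to snRNA:U1:95Cc at 0.85 (edgeR, adjusted p = 0.00855). snoRNA:Psi18S-1854b, snoRNA:Psi18S-110, snoRNA:Psi18S-1377e and snoRNA:Psi28S-1175c gained one too (edgeR, adjusted p from 0.0132 to 0.0256). Against Nab2-FLAG, 0 and 0 became 1 and 3 with the block, 0 and 2 without the filter, and 0 to 1 higher without 1 lysate at a time. With library size alone, which moved the median of all genes to 0.18 in RIP and 0.24 in Input, RIP had 1338 higher and 297 lower and Input 1043 and 169; DESeq2 gave 490 lower in RIP. snoRNAs higher at an unadjusted p under 0.05 numbered 10 without the lysate term. The association of elav, -0.03, was -0.095 to 0.026 without 1 lysate at a time. The cause of these changes was not tested. Of the other alternatives for named RNAs, 970 kept direction and side of the threshold, 13 gained and 22 lost a call. A median interval of ±0.64 (log2) limits what this depth could show.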
